A study of Homo sapiens with 6 samples.

Results

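The comparison described here set 2 arrays of one cell line against each other, the array labelled LEMD1 siRNA and the array labelled MIA2 siRNA. HSC3 is a human squamous cell carcinoma line of the tongue. RNA from HSC3 cells was measured on 6 one-colour CodeLink whole genome arrays, labelled LEMD1 siRNA, MIA2 siRNA, TANGO siRNA (TANGO is a name of MIA3), MATE2 siRNA (a name of SLC47A2), MIA siRNA and control, with 1 array per condition. The control cells are called untreated in the array methods and control siRNA cells in the deposited design. The duration of siRNA treatment of the arrayed cells is not given in the sources used here. The siRNA conditions were transient treatments of the same line. Of 53423 gene probes, 320 were masked by the manufacturer on at least 1 array, and 26726 of the remaining 53103 were flagged good by the scanner on both arrays. These probes measured 12750 named genes, and 11701 of the good probes have no gene name. With 1 array on each side there is no replicate error, so no test was run, and a difference was counted when the signals differed by at least 2-fold, that is by 1 or more on the log2 scale (LEMD1 siRNA over MIA2 siRNA, quantile-normalized signals).

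LEMD1 encodes a LEM domain protein, and proteins with this domain sit at the inner nuclear membrane and bind a chromatin protein. It is a cancer-testis antigen, expressed in the testis and in tumours. MIA2 belongs to a family whose larger members help load bulky secretory cargo such as collagen at sites of export from the endoplasmic reticulum. The comparison asks which transcripts separate cells treated with one siRNA from cells treated with the other.

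The siRNA targets were read first. The LEMD1 probe gave 27.6 on the LEMD1 siRNA array and 42.3 on the MIA2 siRNA array, near background on both, against 278 on the control array. LEMD1 was thus at least 10.1-fold lower than control on the LEMD1 siRNA array and at least 6.57-fold lower on the MIA2 siRNA array, as bounds set by the lower limit of good signals or the probe's own signal. The array labelled MIA2 siRNA was therefore low for the LEMD1 transcript. MIA2 itself had a RefSeq probe near background on all 6 arrays, the control array included (18.6), so this probe could not show a reduction. The other MIA2 probe, made to a different sequence record, gave 175 on the LEMD1 siRNA array and 169 on the MIA2 siRNA array. It gave 155 on the control array, so by this probe no reduction was measured on the array labelled MIA2 siRNA. Whether the transcript of the RefSeq probe was reduced could not be read. For this reason both are called here the LEMD1-labelled and the MIA2-labelled array, and no difference between them is read as an effect of the MIA2 siRNA. SRPX2, a secreted sushi repeat protein, gave 213 on the LEMD1-labelled array and 153 on the MIA2-labelled array, against 1412 on the control array, 6.62-fold and 9.21-fold below control. SLC47A2, a transporter of organic cations, gave 1703 and 1575 on these arrays and 1510 on the control array, but 59.0 on the TANGO-labelled and 79.6 on the MATE2-labelled array. MIA was near background on all 6 arrays, and MIA3 has no named probe.

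The LEMD1-labelled and MIA2-labelled arrays were among the most alike of the series. Over 23444 probes good on all 6 arrays, 217 (0.926%) differed by at least 2-fold between them and the log2 signals had a Pearson r of 0.967. MIA siRNA over control was the only pair with a lower count, 214 probes (0.913%, r = 0.975). The other 13 of the 15 pairs had 771 to 3137 such probes (3.29% to 13.4%), with LEMD1 over control at 942 (4.02%) and MIA2 over control at 1564 (6.67%). These pairs share arrays and are not independent. Levels far from control were shared as values in single genes: KRT5, a basal keratin, gave 14792 and 12771 on the LEMD1-labelled and MIA2-labelled arrays and 1558 on the control array, and MRPL2, a mitochondrial ribosomal protein, gave 7514 and 8112 on these 2 arrays and 606 on the control array.

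**Figure D1:**
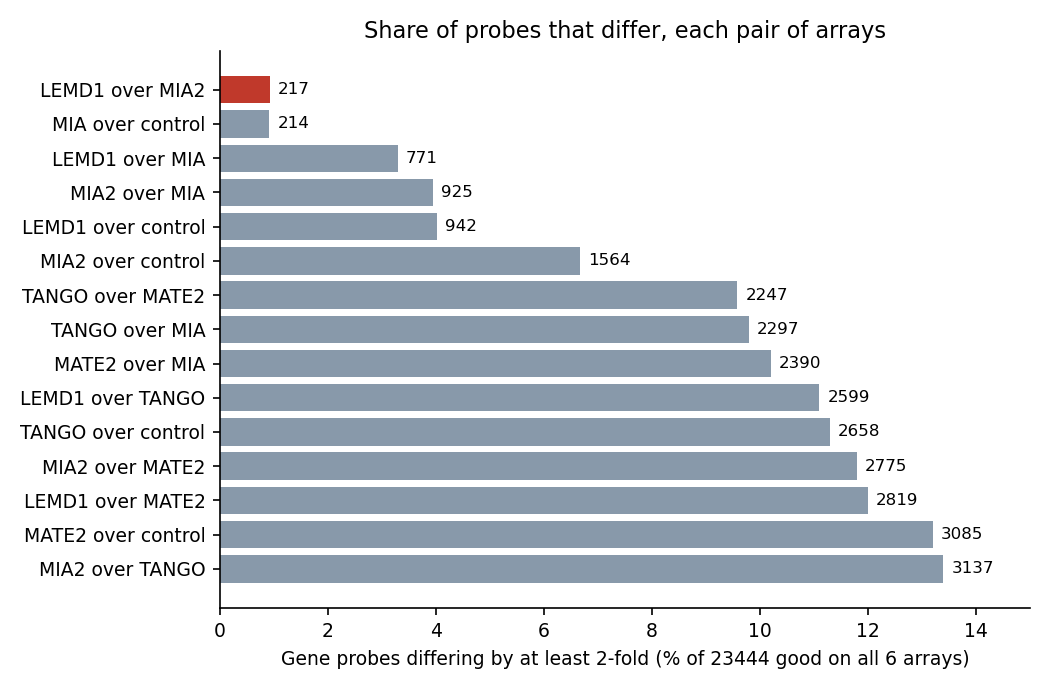
Horizontal bars give, for each of the 15 pairs of arrays, the percentage of 23444 probes good on all 6 arrays that differed by at least 2-fold, with the number of probes beside each bar. LEMD1 over MIA2, in red, had 217 probes and MIA over control 214, below all other pairs.

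Over the 26726 probes good on both arrays, 176 (0.659%) were higher and 78 (0.292%) were lower on the LEMD1-labelled array. In 12750 genes, with 1 probe per gene, 77 (0.604%) were higher and 38 (0.298%) lower. The median log2 ratio was -0.03 over genes, and the robust SD of the log2 ratio was 0.347 over probes, so that most genes lay well inside 2-fold. Of the probes past 2-fold, 69.3% were higher. With each array scaled to its median instead of quantile normalization, the median log2 ratio moved by 0.193 and 580 probes were higher and 13 lower, a share of 97.8% higher. The balance of the calls therefore depended on the scaling, and the lists below are read beside the median of all genes.

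The calls were not spread evenly over the slide. Of the 176 higher probes, 140 lay in the first 63 of 504 rows of spots, where the median log2 ratio was 0.30. Among the 77 higher genes, 64 had their probe there, against 1755 of all 12750 genes. In the rows in between, 32 probes were higher and 48 lower of 20344, with a median of -0.07, and in the last 63 rows 4 were higher and 27 lower of 2804, with a median of -0.29. The MIA2-labelled array departed from the median of the other 4 arrays by -0.22 in the first rows and by 0.29 in the last, and the LEMD1-labelled array by 0.11 and -0.01. The part of slide position in any single ratio was not tested. The median of each of 192 blocks of the slide (24 by 8), which ran from -0.41 to 0.60, was then subtracted from the ratios in it, a choice made after this pattern had been seen. After the subtraction 108 probes (0.404%) were higher and 50 (0.187%) lower, 52 genes (0.408%) were higher and 28 (0.22%) lower, and 26 higher and 15 lower genes were called both ways. The medians of lists and the ratios of genes past 2-fold are therefore given below with their values after block subtraction, as are some smaller ratios that it moved.

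**Figure D2:**
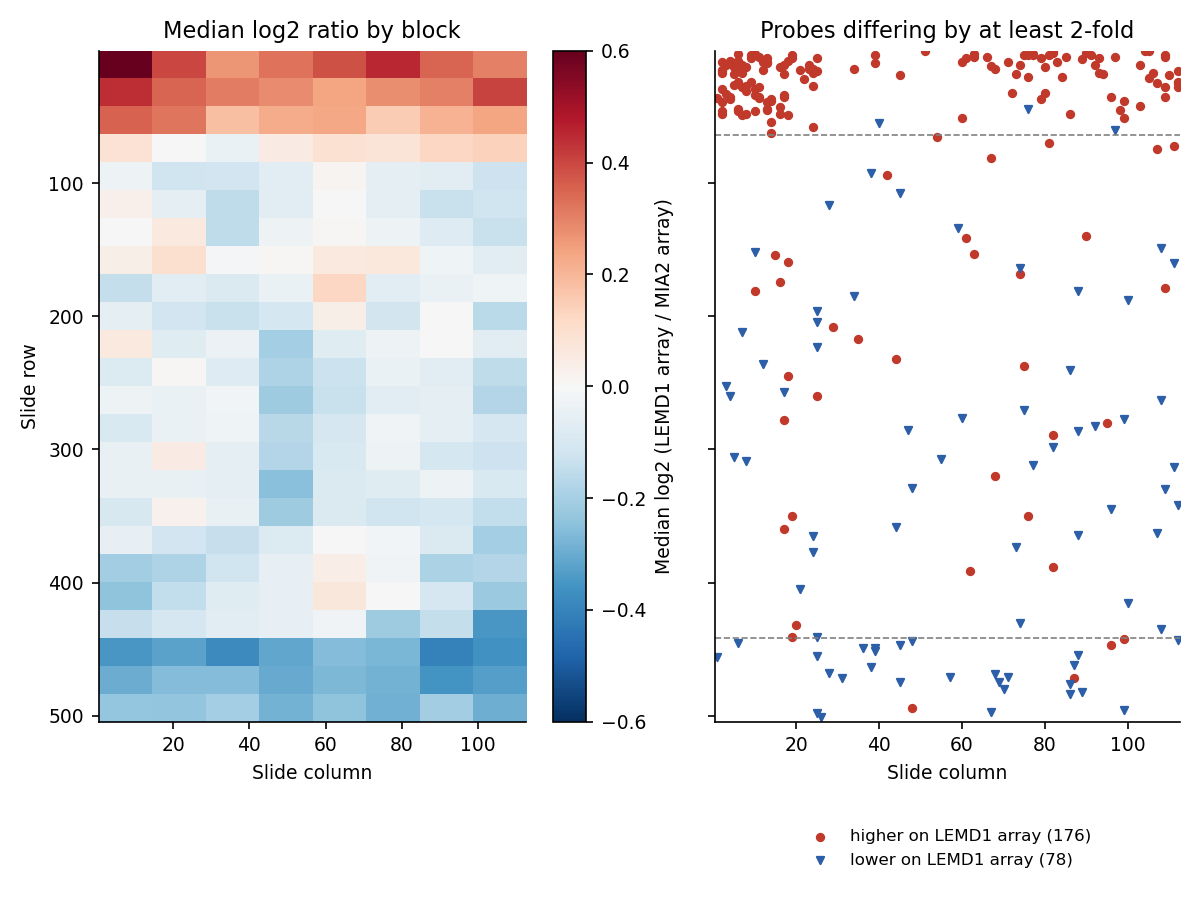
Left, a map of the slide (columns and rows of spots) coloured by the median log2 ratio, LEMD1 array over MIA2 array, in 192 blocks. Right, the position of each probe differing by at least 2-fold, with 176 higher in red and 78 lower in blue; dashed lines bound the first and last 63 rows, and 140 of the red points lie above the upper line.

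Genes of mitosis and the G2/M transition had mostly positive ratios, LEMD1-labelled over MIA2-labelled array, and 5 of them were higher by at least 2-fold. Mitosis depends on kinesin motors that build and slide the spindle, on kinases such as Aurora and Polo-like kinase that time entry and exit, and on scaffold proteins of the contractile ring, and transcription of these genes peaks together late in the cell cycle. Of 35 measured members of a list of 38, 5 were higher by at least 2-fold and none was lower, against 0.604% of all genes higher. The median log2 ratio was 0.47 against -0.03 for all genes, and 29 of 35 members were above 0 (47.2% of all genes were). After block subtraction the median was 0.55, 32 members were above 0 and 4 were higher by at least 2-fold, against 0.408% of all genes. With normexp background correction, without background subtraction or with 50 added before log2, DLGAP5 stayed past 2-fold and KIF11, KIF20A, KIF23 and ANLN did not. KIF11, for example, had 0.95, 0.90 and 0.96. The sequences upstream of 3 members past 2-fold as normalized and after block subtraction are shown here because proliferation genes of this kind often carry 2 promoter elements, the cell cycle genes homology region (CHR, TTTGAA) and the CCAAT box (CCAAT). The promoters are from RefSeq (GRCh38.p14, 5′ to 3′ on the gene's strand, 250 bases before to 50 bases after the start), and capitals mark either motif on either strand.
KIF11, chr10:92592880-92593179, plus strand: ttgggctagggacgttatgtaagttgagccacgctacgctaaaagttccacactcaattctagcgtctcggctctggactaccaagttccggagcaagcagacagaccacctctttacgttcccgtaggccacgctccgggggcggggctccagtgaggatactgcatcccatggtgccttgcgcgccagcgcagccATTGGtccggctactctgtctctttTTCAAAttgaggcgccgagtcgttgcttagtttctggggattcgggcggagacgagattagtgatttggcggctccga
KIF20A, chr5:138178862-138179161, plus strand: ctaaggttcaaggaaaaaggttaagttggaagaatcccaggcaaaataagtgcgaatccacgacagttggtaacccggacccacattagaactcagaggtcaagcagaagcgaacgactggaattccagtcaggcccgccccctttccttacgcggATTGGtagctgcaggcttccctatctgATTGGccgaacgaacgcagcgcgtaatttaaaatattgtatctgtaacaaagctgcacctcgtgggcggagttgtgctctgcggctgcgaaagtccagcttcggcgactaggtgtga
ANLN, chr7:36389612-36389911, plus strand: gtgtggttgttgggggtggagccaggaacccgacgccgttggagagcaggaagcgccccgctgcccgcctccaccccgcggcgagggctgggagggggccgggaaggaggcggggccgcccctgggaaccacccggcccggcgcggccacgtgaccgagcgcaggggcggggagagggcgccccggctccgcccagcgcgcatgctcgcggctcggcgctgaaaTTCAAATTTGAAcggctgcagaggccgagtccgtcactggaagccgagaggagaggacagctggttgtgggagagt
KIF11 has 1 CHR match, at -28 from the start, and 1 CCAAT match, KIF20A has 2 CCAAT matches and none to the CHR, and ANLN has 2 adjoining CHR matches, at -26 and -20, and none to CCAAT. The CHR letters were found in 19 of the 30 list members with a promoter in the table (63.3%), against 10.7% of the 10157 measured genes with a promoter and 15.4% of all 27305 promoters. CCAAT was found in 25 of these 30 (83.3%), 36.6% of measured genes and 35.7% of all promoters. The 19 members with the CHR letters had a median log2 ratio of 0.48 and the 11 without 0.35. These 2 motifs do not overlap in the promoters shown, they were searched after the mitotic genes had been seen, and a match is a description of letters and not of a bound site. The AP-1 motif (TGANTCA, either strand) was in the promoters of 2 of 58 higher and 3 of 31 lower genes with a promoter in the table, against 5.48% of measured genes, and the serum response element in 1 and 2, against 1.13%. At these counts no order is read from either.

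KIF11, the kinesin that slides spindle microtubules apart, gave 559 on the LEMD1-labelled array and 264 on the MIA2-labelled array, a log2 ratio of 1.08 and 1.14 after block subtraction. Its signal was 56.2 on the TANGO-labelled, 81.9 on the MATE2-labelled, 200 on the MIA-labelled and 214 on the control array. The LEMD1-labelled array was thus the highest of the 6 and the MIA2-labelled array second. KIF20A, a kinesin of the central spindle needed for cytokinesis, gave 330 and 155 (log2 ratio 1.09, after subtraction 1.11). It was near background on the TANGO-labelled (14.6) and MATE2-labelled (14.3) arrays, and gave 75.7 on the MIA-labelled and 72.2 on the control array. The same order of these 2 arrays held for KIF20A, with both above control.

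ANLN, the anillin scaffold of the contractile ring, gave 608 on the LEMD1-labelled array and 285 on the MIA2-labelled array (1.09, after subtraction 1.12). Here the MIA2-labelled array lay below control, as the other signals were 109 on TANGO, 350 on MATE2, 355 on MIA and 402 on control. TPX2, which activates Aurora A on the spindle, gave 435 and 221 (0.98, after subtraction 1.02) and again lay below control (297) on the MIA2-labelled array. DLGAP5, a spindle protein that stabilizes kinetochore fibres, gave 616 and 265 (1.22) and KIF23, a central spindle kinesin, 210 and 93.2 (1.17). The probes of both lie in the first 63 rows, and after subtraction their ratios were 0.77 and 0.73, under 2-fold.

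Members under 2-fold filled the range below. The kinase AURKA gave 1064 on the LEMD1-labelled array and 657 on the MIA2-labelled array (0.69), TOP2A, the mitotic topoisomerase, 510 and 326 (0.65), and CDK1, the kinase that drives entry into mitosis, 1250 and 883 (0.50, after subtraction 0.88). CCNB1, its cyclin partner, gave 2041 and 1556 (0.39), and both arrays stood far above control (460). PLK1 (1069 and 934), CCNA2 (754 and 666) and CCNB2 (1265 and 1181) differed little. The 6 members below 0 were PTTG1 (146 and 210, -0.52), which encodes securin, and CENPA, CKS2, MKI67, BIRC5 and UBE2C, between -0.15 and -0.10.

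The LEMD1-labelled array had the highest signal of all 6 arrays in 27 of the 35 genes, the TANGO-labelled array the lowest in 30, and in 17 the LEMD1-labelled array was first and the MIA2-labelled array second. The median log2 ratio of the list over control was 0.69 for the LEMD1-labelled array, 0.30 for MIA2, -1.40 for TANGO, -0.19 for MATE2 and -0.11 for MIA. Both arrays lay above control in 27 of the 35 genes. The list of DNA replication and S phase genes had no member of 29 past 2-fold, and 1 higher after subtraction (0.408% over all genes). Its median was 0.17 (0.19 after subtraction). Over control its median was -0.71 for the LEMD1-labelled and -0.81 for the MIA2-labelled array.

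**Figure D3:**
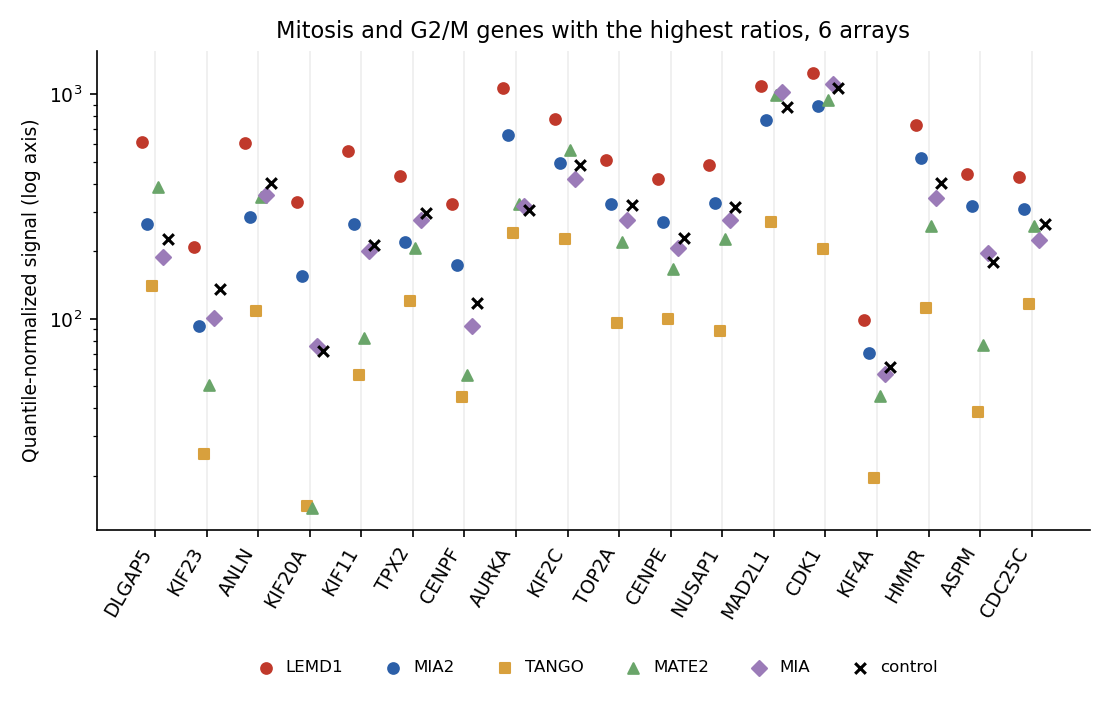
Quantile-normalized signal (log axis) of the 18 mitosis and G2/M genes with the highest log2 ratio, 1 point per array. By this choice of genes LEMD1-labelled signals (red) lie above MIA2-labelled signals (blue) in every gene shown, for example KIF11 at 559 and 264. The 6 members with a ratio below 0 are not shown. The TANGO-labelled array (orange squares) is low in most genes shown.

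Cell junction and basal attachment genes had medians above 0, with 1 gene of each list past 2-fold. Desmosomes rivet epithelial cells to one another through desmogleins and desmocollins, tight junctions seal them through claudins and ZO proteins, and hemidesmosomes tie basal cells to the basement membrane. Of 17 measured desmosome and tight junction genes 1 was higher by at least 2-fold (0.604% over all genes) and none lower, with a median of 0.43 and 15 of 17 above 0 (47.2% over all genes). After block subtraction the median was 0.50 and 3 were higher, against 0.408% over all genes. The exceptions below 0 were CLDN7 and PKP1, at -0.37 and -0.40. The median over control was 0.06 for the LEMD1-labelled and -0.57 for the MIA2-labelled array, so here the MIA2-labelled array lay further from control.

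DSG3, a desmoglein of stratified epithelium, gave 232 on the LEMD1-labelled array and 116 on the MIA2-labelled array (log2 ratio after subtraction 1.19), against 1613 on TANGO, 389 on MATE2, 141 on MIA and 133 on control. Its ratio sat just inside the 2-fold rule. DSG2 gave 426 and 214 (just under 2-fold, 1.09 after subtraction) with 399 on control. TJP1, which encodes ZO-1, gave 493 and 279 (0.82, after subtraction 1.12) with 474 on control. For DSG2 and TJP1 the LEMD1-labelled array was near control and the MIA2-labelled array was below it. CLDN4 gave 716 and 390 on these 2 arrays, 4658 on TANGO, 7402 on MATE2 and 1294 on control. JUP, plakoglobin, gave 3360 and 2278 with 2821 on control.

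Among 19 basal keratinocyte and hemidesmosome genes the median was 0.43 (0.48 after subtraction), 15 were above 0, against 47.2% over all genes, 1 was higher by at least 2-fold, against 0.604%, and none lower. After subtraction none of the 19 was past 2-fold. COL7A1, the anchoring fibril collagen, gave 1414 on the LEMD1-labelled array and 658 on the MIA2-labelled array (1.10), against 197 on TANGO, 336 on MATE2, 258 on MIA and 317 on control. Both arrays thus stood above the other 4. Its probe lies in the first 63 rows, and the ratio after subtraction was 0.79. The laminin chains LAMA3 (2194 and 1314, 0.74, after subtraction 0.82) and LAMB3 (587 and 429, 0.45, after subtraction 0.80) lay below their control levels of 4327 and 1432 on both arrays. The integrin chains of the same attachment, ITGA6 (0.40) and ITGB4 (0.55), differed in the same direction and by less than 2-fold. The keratins KRT5, KRT14 and KRT15 had ratios of 0.21, -0.22 and -0.08, and after subtraction -0.11, -0.15 and -0.02, so that the sign of KRT5 turned. DST, a hemidesmosome linker, had 0.86 by its brightest probe and 0.26 and -0.69 by its 2 others, so its probes disagreed.

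Genes of the nuclear envelope, the compartment of LEM domain proteins, had a median of 0.32 over 15 measured members (0.29 after subtraction). Of these 12 were above 0 (47.2% over all genes). After subtraction none was past 2-fold, and as normalized 1 was higher by at least 2-fold (0.604% over all genes). That gene was LBR, the lamin B receptor, at 132 on the LEMD1-labelled array and 61.3 on the MIA2-labelled array (1.11), with a probe in the first rows and 0.88 after subtraction. SUN2 gave 2103 and 1217 (0.79), LEMD3 293 and 177 (0.73) and LEMD2 1176 and 777 (0.60), while EMD, emerin, gave 199 and 293 (-0.56). In the 22 measured genes of the MIA family and of COPII export, none differed by 2-fold. Their median was 0.13 (0.24 after subtraction), and the largest ratio was that of SEC31A, an outer coat protein, at 348 and 182 (0.94).

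Cholesterol and fatty acid synthesis genes had 30 measured members and none past 2-fold. After subtraction 2 were higher by at least 2-fold, against 0.408% over all genes. Their median was 0.13, which was 0.23 after subtraction and 0.0768 without the outer rows of the slide. At their upper end was SREBF1, a regulator of lipid synthesis, at 4132 and 2184 (0.92, after subtraction 1.04), with 2256 on control. CCNG1, a cyclin G gene of the p53 targets, gave 838 on the LEMD1-labelled array and 413 on the MIA2-labelled array (1.02, after subtraction 1.38), and 324 to 368 on the other 4 arrays. The LEMD1-labelled array alone stood apart for this gene.

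Most genes of 2 mitochondrial lists had negative ratios, and 1 of them was lower by at least 2-fold. Mitochondrial ribosomal proteins make the few proteins coded by mitochondrial DNA, and complex I of the respiratory chain takes electrons from NADH. All 36 measured mitochondrial ribosomal protein genes had a log2 ratio below 0, against 52.7% of all genes, though none was lower by at least 2-fold. Their median was -0.35, and after block subtraction -0.31 with 3 above 0. The ratios ran from MRPL20 (257 and 502, -0.97) and MRPS34 (909 and 1732, -0.93) to MRPS22 (2212 and 2225, -0.01). Over control the median was -0.02 for the LEMD1-labelled and 0.35 for the MIA2-labelled array, and 0.39 for MATE2, -0.13 for TANGO and 0.04 for MIA. The LEMD1-labelled array was thus level with control, and the MIA2-labelled and MATE2-labelled arrays were above it.

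Among 28 measured complex I subunits 26 were below 0 (52.7% over all genes) and 1 was lower by at least 2-fold (0.298% over all genes). The median was -0.36 (-0.30 after subtraction). Over control the median was 0.34 for the LEMD1-labelled and 0.72 for the MIA2-labelled array, and 0.55 for MATE2, 0.08 for TANGO and 0.02 for MIA. NDUFS7, an iron-sulfur subunit of complex I, gave 133 on the LEMD1-labelled array and 503 on the MIA2-labelled array, against 601 on TANGO, 520 on MATE2, 398 on MIA and 360 on control. Its log2 ratio of -1.92 (-1.80 after subtraction) was the lowest of all genes, and the LEMD1-labelled array was the only one of the 6 with a low signal. NDUFB6 (444 and 746, -0.75) and NDUFA2 (519 and 811, -0.64) followed, and NDUFS1 (797 and 637, 0.32) had the highest ratio of the list. Cytosolic ribosomal proteins had 23 measured members, 19 of them below 0 (52.7% over all genes), with a median of -0.24 (-0.19 after subtraction).

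**Figure D4:**
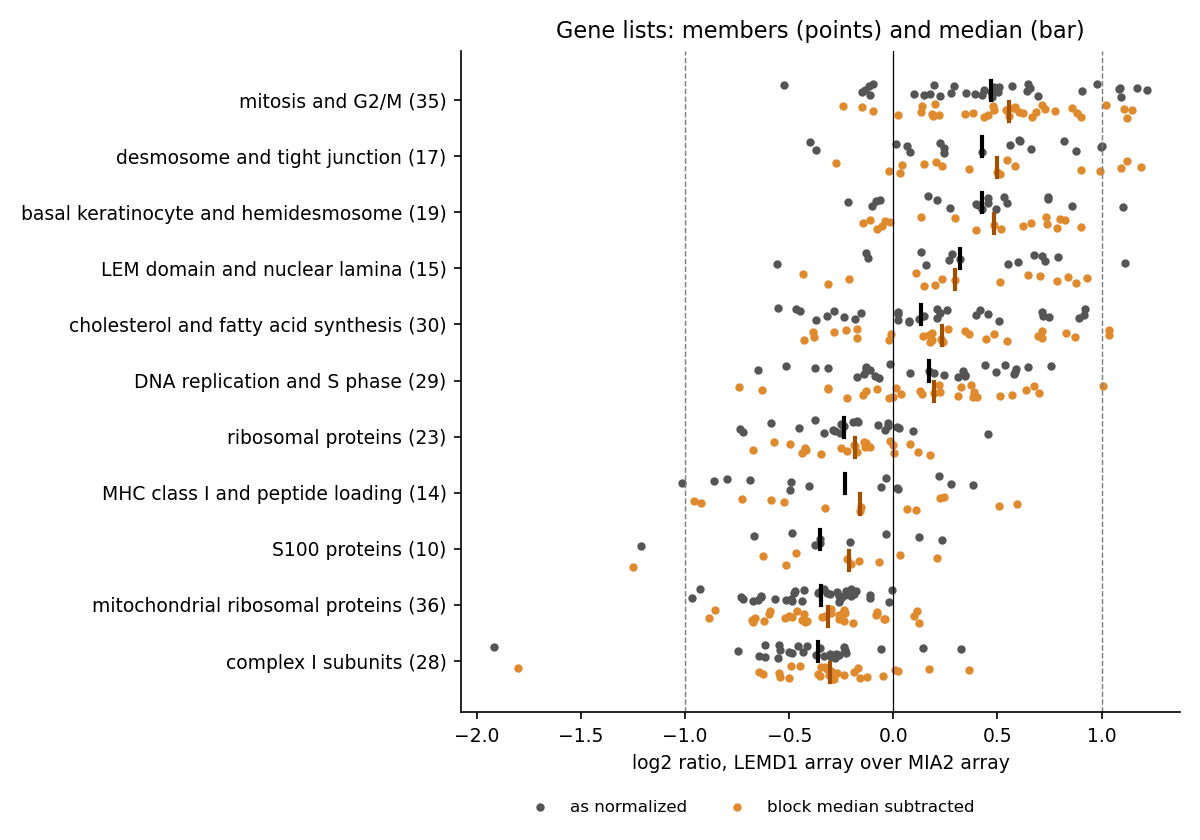
Log2 ratio of the members of 11 gene lists, LEMD1 array over MIA2 array, as normalized (grey) and after subtraction of block medians (orange), with bars at the medians, the number of measured genes in brackets and dashed lines at 2-fold. The mitosis list has its median at 0.47 and the mitochondrial ribosomal list at -0.35, and neither moves across 0 after subtraction.

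Other genes that were lower stood apart singly. S100A10, the annexin A2 partner at the cell surface, gave 493 on the LEMD1-labelled array and 1144 on the MIA2-labelled array, and 334 to 630 on the other 4 (-1.21, after subtraction -1.25). In all, 8 of the 10 measured S100 genes were below 0 (52.7% over all genes), with a median of -0.35 (-0.21 after subtraction). TNFSF10, which encodes the death ligand TRAIL, gave 172 and 396 (-1.20, after subtraction -1.17), and 257 to 471 on the others. For S100A10 the MIA2-labelled array was the highest of 6, and for TNFSF10 the LEMD1-labelled array the lowest. TWIST1, a transcription factor of epithelial to mesenchymal transition, gave 99.4 and 243 (-1.29, after subtraction -1.26), against 45.8 to 198 on the others. Among 12 measured genes of that transition 10 were above 0 (47.2% over all genes), with a median of 0.22 (0.23 after subtraction). TWIST1 was thus an exception in its list, and the only member past 2-fold. ABRACL, a small actin regulator, gave 82.6 and 215 (-1.38, after subtraction -1.21), against 55.5 to 74.8 on the others, again with the MIA2-labelled array alone high.

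PSMB10, an immunoproteasome subunit that trims peptides for MHC class I, gave 477 on the LEMD1-labelled array and 966 on the MIA2-labelled array (-1.02, after subtraction -0.93), but its other good probe had a ratio of 0.04. PSMB9 (771 and 1402, -0.86), PSME2 (1276 and 2222, -0.80) and PSMB8 (1765 and 2483, -0.49), of the same proteasome, were lower by less than 2-fold. The list of MHC class I and peptide loading had 14 measured genes, 9 below 0 (52.7% over all genes) and a median of -0.23 (-0.16 after subtraction). Under the alternative settings this median ran from -0.40 to -0.05, the value nearest 0 with the mean of probes. In this list B2M was at -0.49 and HLA-F at -0.40 by its brightest probe and 0.36 by its other. TCEAL1 had 2 good probes that both passed 2-fold, at -1.09 and -1.13, and the brighter gave 217 and 461 (after subtraction -1.02). Among genes whose higher signal of the 2 was above 167, the median of good probes, the rest of the 15 lowest ratios belonged to SSPN, CALHM6, NPM3, C12orf54, GID8, MYL12A, HSD17B3, PRRG4 and ZDHHC12-DT, between -1.17 and -1.04. Of these 15 genes, 12 still passed 2-fold after block subtraction, PRRG4 and ZDHHC12-DT fell just short (the first at -0.98) and HSD17B3, in the last rows, had -0.70. With normexp background correction, and again without background subtraction, only NDUFS7 and S100A10 of these 15 stayed past 2-fold. TWIST1, for example, had -0.95 and -0.92. With median scaling only NDUFS7, ABRACL, TWIST1, S100A10 and TNFSF10 stayed past 2-fold.

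The 15 highest ratios, under the same condition on signal, were mostly of genes outside the lists above. VENTX, a homeobox gene, gave 286 on the LEMD1-labelled array and 80.6 on the MIA2-labelled array, against 76.2 on TANGO, 302 on MATE2, 206 on MIA and 278 on control (1.82, after subtraction 1.23). INHBC, an inhibin chain, gave 319 and 95.3 (1.74, after subtraction 1.39), with 101 on TANGO, 311 on MATE2, 127 on MIA and 316 on control. For both genes the LEMD1-labelled array was level with control, the MIA2-labelled and TANGO-labelled arrays were low, and for INHBC the MIA-labelled array was low too. LGI3 (510 and 152), HECTD4 (189 and 56.4), ST7L (341 and 104), LINC01590 (199 and 62.0), TRBV19 (453 and 141), FAM131B (247 and 84.2), SLC16A12 (294 and 107), PSD4 (328 and 123), ADRA1B (569 and 215), GABRG3 (260 and 101), OR8D2 (509 and 198) and ETV4 (556 and 218) followed. All of these 14 genes have their probe in the first 63 rows. ETV4, a transcription factor downstream of ERK signaling, and OR8D2 fell under 2-fold after subtraction (0.75 and 0.76), and a second probe of LGI3 had a ratio of 0.09.

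SMG1P5, a pseudogene copy of SMG1, was the exception among the 15, in row 350. It gave 727 on the LEMD1-labelled array and 261 on the MIA2-labelled array, against 316 to 503 on the others (after subtraction 1.46), but its other good probe had 0.47 and a probe to such a copy may also bind its relatives. LAMA5, a laminin chain, gave 6620 and 3026 with 8379 on control (1.13, after subtraction 0.68) and a second probe at -0.09. FGF21, a hormone induced by amino acid stress, gave 169 and 67.8 with 129 on control (1.32, after subtraction 0.91). The probes of LAMA5 and FGF21 also lie in the first rows.

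**Figure D5:**
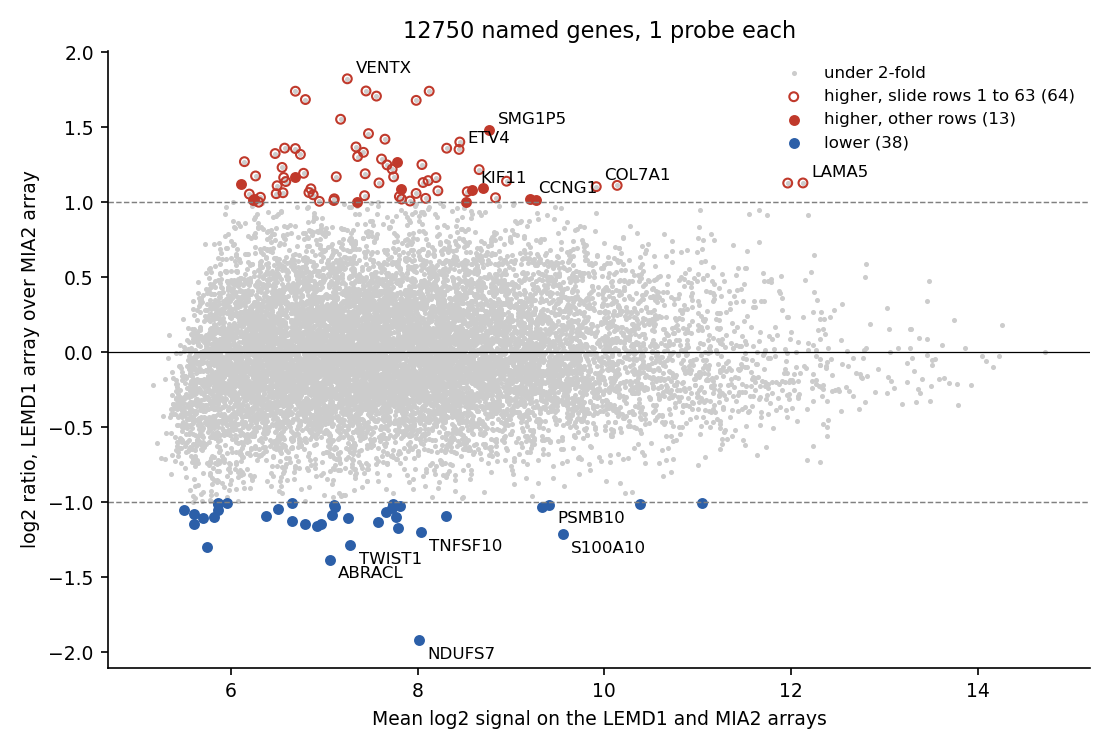
Log2 ratio, LEMD1 array over MIA2 array, against the mean log2 signal of the 2 arrays for 12750 named genes. Red marks 77 higher genes (open symbols for the 64 in the first 63 rows of the slide), blue marks 38 lower genes, and dashed lines mark 2-fold.

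Which of these 2 arrays stood apart was read from the other 4. For 59 of the 77 higher genes the median of the other arrays lay nearer the LEMD1-labelled array. The MIA2-labelled array was the lowest of 6 in 46 of the 77 and the LEMD1-labelled array the highest in 32. Over all 12750 genes these counts were 1737 and 1636. A gene called higher cannot have the MIA2-labelled array highest or the LEMD1-labelled array lowest, so part of these counts follows from the choice of genes. Among the 64 in the first rows 54 lay nearer the LEMD1-labelled array, and among the 13 elsewhere 5 did. For the 38 lower genes 22 lay nearer the LEMD1-labelled array. In these 38 the MIA2-labelled array was highest of 6 in 22 and the LEMD1-labelled array lowest in 15, against 2370 and 1554 of all genes. Over all genes 55.6% lay nearer the LEMD1-labelled array. Thus 41 of the 64 higher genes in the first rows had their lowest signal on the MIA2-labelled array, and 24 their highest on the LEMD1-labelled array.

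Some genes were read on 1 of these 2 arrays only. The LEMD1-labelled array had 30628 good gene probes, the most of the 6, and the MIA2-labelled array 27545, the fewest, and 1109 genes were good on the LEMD1-labelled array alone against 247 on the MIA2-labelled array alone. By the bound, 23 of the 1109 were at least 2-fold higher, 20 of them in the first rows. MEFV, the gene of pyrin, an inflammasome sensor, gave 325 on the LEMD1-labelled array and 43.7 on the MIA2-labelled array, at least 7.42-fold higher, with 222 to 420 on the others. ITIH2, IQCF1, METTL16 and SLC2A4 had bounds of 3.56, 3.52, 2.74 and 2.60, and METTL16 alone of these 5 lay outside the first rows. In the other direction 67 of the 247 were lower by 2-fold or more by the bound. The counts of the 2 directions are not comparable. The lowest good signal that limits the bound was 38.6 on the MIA2-labelled array and 27.5 on the LEMD1-labelled array. ADARB2-AS1 (30.2 and 92.1), LINC01389 (19.0 and 82.7), FNDC11 (28.0 and 78.4), TMEM63C (25.7 and 75.1) and EPHA1-AS1 (26.8 and 72.3) had the largest bounds, at least 3.05-fold to at least 2.63-fold lower, all at low signals.

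The log2 ratio also moved with the span of the gene on the genome. Genes were put in 5 equal bins by span. In the bin with the shortest span (median 4184 bases) the median log2 ratio was -0.14, and it was -0.07, about 0, 0.06 and 0.05 in the following bins, the last with a median span of 153686 bases. After block subtraction the shortest bin had -0.08 and the longest 0.08. Across 12737 genes on these same arrays Spearman's rho was 0.193 (0.200 after subtraction), given as a description, since genes are not replicates. The median over control was 0.15 in the shortest and -0.06 in the longest bin on the MIA2-labelled array, and 0.02 and 0.00 on the LEMD1-labelled array. The median span was 8187 bases in the mitochondrial ribosomal, 12268 in the complex I, 5057 in the ribosomal and 22826 in the mitosis list, against 27216 over all genes, and the part of gene span in their ratios was not tested.

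The keratinocyte identity of both samples was read from defining markers. Of 10 keratinocyte markers 8 have a named probe and 7 were good on both arrays. Signals were summed over all markers with a probe, those near background included. The keratinocyte sums were 37946 on the LEMD1-labelled array and 37452 on the MIA2-labelled array. Fibroblast markers were good in 4 of 7 genes (sums 561 and 594), endothelial markers in 2 of 7 (474 and 630) and leukocyte markers in 3 of 8 (258 and 359). None of the markers good on both arrays differed by 2-fold. In these bulk RNA samples a change in the mix of cells, such as the share of cells in mitosis, and a change of RNA per cell cannot be told apart.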

How the data were processed

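Arrays were grouped by their deposited labels. Spot intensity came from the authors' deposited scanner output, whose headers name CodeLink Expression Analysis, version 5.0.0.31312. Used here was the spot mean less its local background median, a relation that held within 0.0001. The deposited value table is the authors' quantile-normalized intensity, linear and not centred, with a median of 51.1 on every array, and served as an alternative. Scanner intensities of 53103 unmasked gene probes were quantile normalized over 6 arrays in Python 3.11.15, values under 1 were set to 1, and log2 was taken. For each gene the probe with the highest mean log2 signal among those good on both arrays was used. Symbols came from the platform annotation, updated through RefSeq, with 649 probes named from their accession. Of the 53103 probes, 898 match several genes and 28245 have no name, and neither kind was named. The lowest good signal was 27.5 on the LEMD1 siRNA array and 38.6 on the MIA2 siRNA array, which limits what could be read, and array number limits precision. The named genes were the siRNA targets and SRPX2, the 15 highest and 15 lowest ratios among genes whose brighter signal of the 2 exceeded the median of good probes (167), members of lists past 2-fold, other list members as contrast, and the 5 largest bounds per direction. DSG2, TJP1 and TPX2 were singled out as passing after block subtraction. The comparison and the 46 gene lists were chosen with earlier results of these data known. The ratio rule was run on simulated arrays with planted changes larger than 2-fold. These arrays had no trend over the slide, so the run does not bear on calls that follow slide position. Loess used statsmodels 0.14.6 and normexp used limma 3.58.1 in R 4.3.3.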

Additional observations from a re-analysis of the deposited data

Results flagged for a closer look

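LEMD1 was read above the control array on arrays outside the comparison. Its signal was 3192.1 on the array labelled TANGO siRNA and 1011.4 on the array labelled MATE2 siRNA, against 277.9 on the control array, 11.5-fold and 3.64-fold higher. On the LEMD1-labelled and MIA2-labelled arrays it was near background.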

How the results depend on the processing

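No paired analysis was possible because each condition has 1 array and the conditions share only the replicate number 1. The medians of the mitosis, desmosome and tight junction, mitochondrial ribosomal and complex I lists kept their direction and stayed within 1.5 times under all 15 alternatives that gave one, at 0.40 to 0.55, 0.33 to 0.58, -0.36 to -0.29 and -0.36 to -0.30. The counts past 2-fold moved more. As probes higher, probes lower, genes higher and genes lower, against 176, 78, 77 and 38, they were 580, 13, 258 and 6 with median scaling, 45, 6, 25 and 2 with normexp, 37, 4, 22 and 2 without background subtraction, 45, 8, 25 and 4 with 50 added before log2, 75, 29, 43 and 15 in bright probes, 1296, 429, 347 and 158 where 1 good flag sufficed, and 5198, 4997, 1108 and 1104 with no flag filter. At 1.5-fold they were 1603, 1371, 764 and 624, and at 3-fold 15, 1, 7 and 1. Loess on signal left 49 probes and 24 genes lower. Of the alternatives chosen after seeing the data, block subtraction left 108 probes higher and 50 lower, and leaving out the first and last 63 rows 32 and 48, with 12 genes higher. Probes past 2-fold were 80.9% higher with loess, 88.2% with normexp, 90.2% without background subtraction, 84.9% with 50 added and 40.0% without the outer rows, against 69.3%. The counts under quantile normalization of these 2 arrays alone or without the TANGO-labelled and MATE2-labelled arrays, with the deposited table, with good flags on all 6 arrays and with the mean of probes stayed within 1.5 times. Of 42 genes past 2-fold that were recomputed, 22 fell under it with normexp, 23 without background subtraction, 20 with 50 added, 12 with block subtraction and 11 with median scaling, and none changed sign. The median of interferon-stimulated genes did, being -0.05 as normalized and 0.137 with median scaling, 0.031 with block subtraction and 0.0239 without the outer rows. A smaller number of genes and probes was tested under the stricter filters, and the cause of the other shifts was not tested. Signal over background limits the calls, as 21634 probes were near background on both arrays.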
